A study of Rattus norvegicus with 9 samples.

Results

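The genes described here were chosen because their levels in neural progenitor-like cells (NPCs) made from rat bone marrow cells with insulin-like growth factor 1 (IGF-1) lay apart from those in NPCs made without it. They are Apln, Cox4i2, the genes ENSRNOG00000016033 and ENSRNOG00000045543, and the annotated transcript ENSRNOT00000072149, which make 5 of 26249 annotated genes and groups of overlapping transcripts in the data. The values that chose them are the FPKM (fragments for each kilobase of a transcript and each M of mapped fragments) of the 3 libraries of NPCs and the 3 libraries of NPCs with IGF-1. The difference between these groups is therefore given below as a description with no test. All 5 passed the filter on low values, but ENSRNOG00000016033 passed it only through the libraries with IGF-1.

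The cells were mesenchymal stem cells (MSCs) from the bone marrow of 3 young Sprague-Dawley rats, and carried no transgene. MSCs were untreated and at passage 3. NPCs were passage 3 cells kept for 3 days in EGF and bFGF, and the third group received EGF, bFGF and IGF-1 for the same 3 days at a dose not stated in the sources. Each group held 3 libraries of stranded mRNA-seq, made from 300 ng of total RNA, and the labels do not say which rat gave which library. By the study's methods, NPCs grew as floating spheres in a neural medium while MSCs grew attached, so that growth factors, medium and attachment cannot be told apart when induced cells are compared with MSCs. The libraries held 42.2 to 55.6 M reads as implied by the width of the FPKM confidence intervals, and the size factors used to scale them ran from 0.872 to 1.045.

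IGF-1 is a secreted hormone that binds a receptor tyrosine kinase and acts through PI3 kinase and AKT, which keep FoxO transcription factors out of the nucleus. Apln encodes apelin, a secreted peptide that binds a G protein-coupled receptor and is known for its part in vessel growth and heart function. It is made by endothelial cells and adipocytes among others, and its transcription is known to rise in low oxygen and with insulin. Cox4i2 encodes an isoform of subunit IV of cytochrome c oxidase, the last complex of the respiratory chain, and replaces the common isoform encoded by Cox4i1 in lung and in some oxygen-sensing and perivascular cells. The other members are not named in the tables used, so that their products are not described.

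The promoter of Apln is shown because the gene is the only member with an entry in the RefSeq promoter table. The 250 bases before its start lie at chrX:132091247-132091496 on the minus strand of GRCr8, a build that is not known to be that of the deposited files. They hold 64.8% G and C. Capitals mark the GC boxes, searched as GGGCGG on either strand.

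Apln promoter: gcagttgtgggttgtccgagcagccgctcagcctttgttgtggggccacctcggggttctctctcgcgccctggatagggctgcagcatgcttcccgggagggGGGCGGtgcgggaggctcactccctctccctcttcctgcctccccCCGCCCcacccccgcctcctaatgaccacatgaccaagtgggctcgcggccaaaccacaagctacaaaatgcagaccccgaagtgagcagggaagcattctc

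The GC boxes began 147 bases (forward strand) and 102 bases (reverse strand) before the start, and 30.5% of 33469 rat promoters of the same length held at least 1. The core of the hypoxia response element (ACGTG, present in 16.6% of the promoters), a FoxO site (GTAAACA, 3.21%) and a TATA box (TATAAA, 12.9%) were not found in these 250 bases on either strand. Such matches describe letters only, and nothing about binding was measured.

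Apln was present in induced cells, near 0 in MSCs, and higher in every library with IGF-1 than in every NPC library. Its annotated transcript ENSRNOT00000005331 has 3 exons and 1274 bases and lies on the minus strand of chromosome X, from 134930886 to 134938569 in the coordinates of the files. In NPCs the FPKM were 5.57, 7.90 and 4.95, a mean of 6.14 ± 1.55 (SD, n = 3). With IGF-1 they were 16.6, 16.3 and 11.8, a mean of 14.9 ± 2.69 (SD, n = 3). MSCs were at 0, 0.0175 and 0.0140 FPKM, which rest on 0, 1 and 1 implied reads. The ratio of the means with and without IGF-1 was 2.43, and single pairs of libraries gave 1.5 to 3.36. The log2 difference was 1.26 (SE 0.22), which ranked 137 among the increases of 14228 tested genes.

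Apln was far higher in induced cells than in MSCs, by a contrast that weighs both induced groups equally and does not use the difference between them. The log2 difference was 6.40 (SE 0.19, adjusted p = 8.17e-08 by limma over all tested genes), and 22.0% of all tested genes were called in that contrast, 12.0% as higher in induced cells and 10.0% as lower. Taken singly, NPCs differed from MSCs by 5.77 (SE 0.22) and cells with IGF-1 by 7.04 (SE 0.22) on the log2 scale, 2 comparisons that share the MSC libraries. These differences are on the log2(FPKM + 0.1) scale, which understates the change of a gene near 0 in MSCs. Apln passed from the level of 1.22% of the tested genes in MSCs (the share with a lower mean) to 49.5% in NPCs and 73.8% with IGF-1.

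The Apln transcript of the induced cells was longer than the annotated one. In all 6 induced libraries the annotated transcript was listed at 0 and the whole FPKM stood on 1 unannotated transcript of the same 3 exons. That transcript ran 1766 to 1777 bases past the annotated 3′ end and had 3042 to 3174 bases. It had the same form with and without IGF-1. Counted as fragments per M mapped fragments (FPKM times the effective length in kilobases), the locus held 16.1, 22.5 and 14.2 in NPCs and 47.3, 46.5 and 35.2 with IGF-1, a ratio of means of 2.44. These values correspond to 704 to 950 implied reads in NPCs and 1624 to 2476 with IGF-1, and the confidence intervals of the transcript itself imply 541 to 671 and 955 to 1204. Counting error is small against the spread between libraries at either number. With annotated isoforms only, Apln would be listed at 0 in every induced library and could not be tested.

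**Figure D1:**
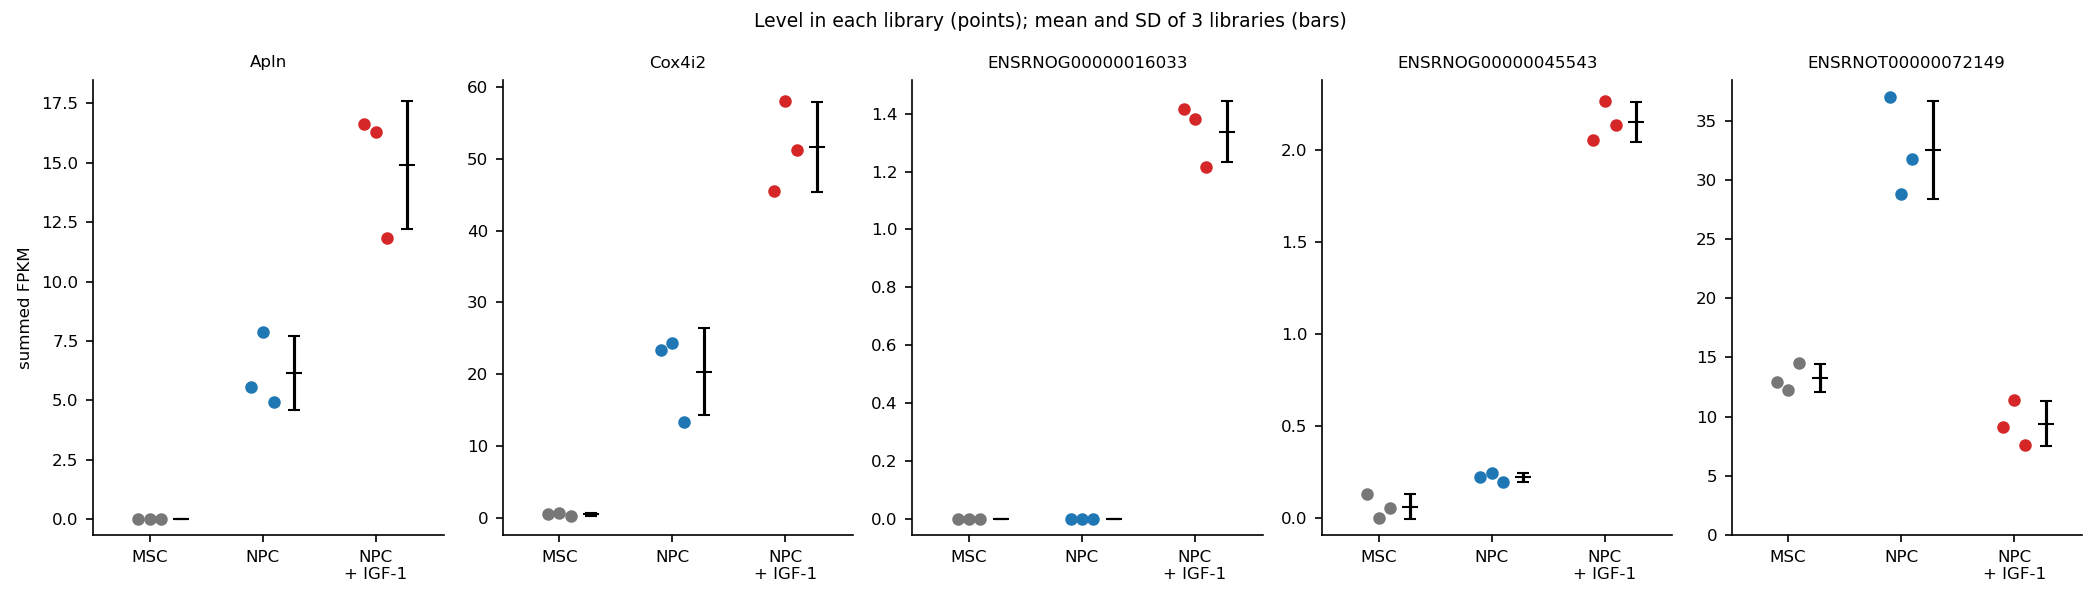
Summed FPKM (y axes, linear, each panel with its own range) of the 5 genes in the 3 libraries of MSCs, NPCs and NPCs with IGF-1 (points), with the mean and SD of 3 libraries (bars). The libraries of NPCs and of NPCs with IGF-1 do not overlap for any of the 5 genes, which is how they were chosen. ENSRNOT00000072149 is the member that is lower with IGF-1.

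Cox4i2 followed the same order of groups as Apln, at a higher level. Its annotated transcript ENSRNOT00000010418 has 5 exons and 704 bases on the plus strand of chromosome 3, from 154637663 to 154648535. In NPCs the FPKM were 23.4, 24.4 and 13.4, a mean of 20.4 ± 6.07 (SD, n = 3). With IGF-1 they were 45.5, 58.0 and 51.3, a mean of 51.6 ± 6.28 (SD, n = 3). MSCs were at 0.542, 0.760 and 0.298 FPKM, or 13, 21 and 7 implied reads. The lowest library with IGF-1 was 1.87 times as high as the highest NPC library, and the ratio of means was 2.53. The log2 difference was 1.36 (SE 0.28), ranked 115 among the increases.

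Cox4i2 also rose from MSCs to induced cells, with a log2 difference of 5.66 (SE 0.24, adjusted p = 5.57e-07 by limma). NPCs differed from MSCs by 4.98 (SE 0.28) and cells with IGF-1 by 6.34 (SE 0.28). With IGF-1 its mean was above that of 93.3% of the tested genes, against 81.2% in NPCs and 19.8% in MSCs.

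The isoforms of Cox4i2 varied between libraries of the same group. The annotated transcript held all of the FPKM in NPC library 3 and in library 3 with IGF-1. In the other 4 induced libraries 1 or 2 unannotated isoforms took a share. Their sum was what set the groups apart. With the annotated isoform alone, NPCs were at 20.6, 13.4 and 13.4 FPKM and cells with IGF-1 at 16.2, 52.7 and 51.3, and the groups overlapped. As fragments per M over the locus, which do not depend on how reads are split among isoforms, NPCs were at 13.2, 12.8 and 6.76 and cells with IGF-1 at 24.5, 31.4 and 25.8, which did not overlap.

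The annotated transcript nearest to Cox4i2 on its left, ENSRNOT00000029660 (chromosome 3, 154620033 to 154621183, plus strand), was also higher with IGF-1 in every library. It was at 17.8, 15.7 and 20.8 FPKM in NPCs, 30.1, 38.1 and 37.2 with IGF-1, and 9.0, 4.36 and 7.99 in MSCs. Its log2 difference of 0.94 (SE 0.28, adjusted p = 0.941 by limma) did not pass. Around the 5 members, 10 annotated neighbours lay within 100 kb, 8 of them were tested, and none was called between the groups with and without IGF-1 by limma. At an unadjusted p under 0.05 the count was 1, which is ENSRNOT00000029660. Over all tested genes 0.0211% were called and 4.62% had an unadjusted p under 0.05.

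ENSRNOG00000016033 was listed above 0 only in the 3 libraries with IGF-1. Its transcript ENSRNOT00000021531 has 3 exons and 1019 bases on the plus strand of chromosome 3, from 14094225 to 14096950. The FPKM with IGF-1 were 1.42, 1.38 and 1.22, a mean of 1.34 ± 0.106 (SD, n = 3), and rest on 61, 52 and 46 implied reads. It was listed at 0 in all 3 NPC libraries and all 3 MSC libraries. It was the only one of the 14228 tested genes with 0 in all NPC libraries and at least 1 FPKM in all libraries with IGF-1, and 0 genes showed the reverse. These values chose the gene, and 1 FPKM lies just under its lowest value, so nothing is read from that count. With annotated isoforms at any level above 0 in all libraries with IGF-1, and at 0 in all NPC libraries, the count was 35 (0.246%). The log2 difference of 3.82 (SE 0.21) depends on the pseudocount, and was 7.04 with 0.01 and 1.21 with 1 in place of 0.1.

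A value of 0 for this gene could not be read as a lack of reads. The attribute that marks a transcript as fully covered by reads across its introns and inner exons was "yes" in all 3 NPC libraries and in 2 of the 3 MSC libraries, although the FPKM there were 0. Across all annotated transcripts listed at 0, 13.3 to 15.5% carried that mark. The last exon, 343 of the 1019 bases, lies wholly within exon bases of ENSRNOT00000030623, an annotated transcript of the minus strand (chromosome 3, 14096394 to 14101124). Of the tested genes, 3.83% share exon bases with a gene of the other strand.

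The isoform shares that the files give for this pair added up to 1 in every library. The plus-strand gene took 12.0, 10.5 and 11.0% of the fragments of the pair in the libraries with IGF-1 and 0% in the 6 others. The pair together held 9.23, 7.64 and 7.89 fragments per M in NPCs, 9.68, 10.8 and 9.06 with IGF-1 and 11.0, 9.04 and 10.5 in MSCs, and the ranges of these groups overlapped. The minus-strand transcript itself was at 5.86, 6.27 and 5.76 FPKM in NPCs and 5.77, 6.81 and 8.10 with IGF-1, a log2 difference of 0.18 (SE 0.19, adjusted p = 1 by limma). The library kit marks strand, and nearly all unannotated transcripts of a single exon carry one in the files (all but 0 to 2 in each library). Whether the abundance step used strand is not stated in the sources used here, so the division of reads between the pair was not tested. In the contrast of induced cells with MSCs the log2 difference was 1.91 (SE 0.18), which rests on the libraries with IGF-1 alone. NPCs and MSCs, both listed at 0, gave 0.

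**Figure D2:**
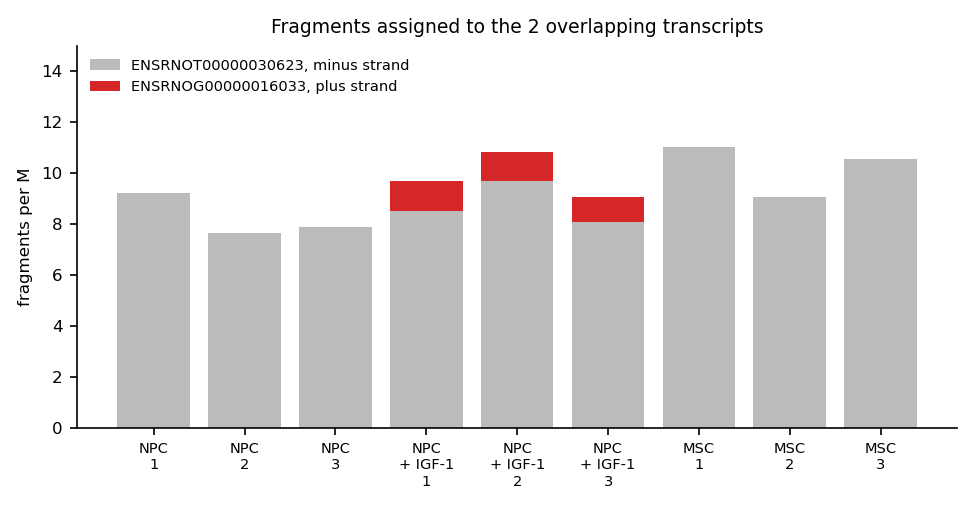
Fragments per M (y axis, linear from 0) assigned in each of the 9 libraries to the minus-strand transcript ENSRNOT00000030623 (grey) and to ENSRNOG00000016033 on the plus strand (red), stacked. The red part is present in the 3 libraries with IGF-1, where it is 10.5 to 12.0% of the bar, and absent from the 6 others, while the height of the whole bar overlaps between the groups.

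ENSRNOG00000045543 stood at about 2 FPKM with IGF-1 and near the minimum of 0.1 FPKM without it, but its whole locus held nearly the same number of fragments in both groups. Its transcript ENSRNOT00000072055 is a single exon of 693 bases on the minus strand of chromosome 1, from 268542217 to 268542909. The FPKM were 0.226, 0.245 and 0.195 in NPCs (0.222 ± 0.0250, SD, n = 3), and 2.05, 2.27 and 2.13 with IGF-1 (2.15 ± 0.107, SD, n = 3). In MSCs they were 0.134, 0 and 0.0545. The groups did not overlap and the ratio of means was 9.70, with 8.40 to 11.6 over pairs of libraries. The NPC values rest on 5 implied reads in each library.

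The transcripts of this locus were assembled in another way with IGF-1 than without. In the 3 libraries with IGF-1, 1 unannotated transcript of 1919 to 1993 bases covered the annotated exon and ran 1226 to 1271 bases past its 3′ end, and the annotated transcript was listed at 0. In the NPC and MSC libraries the annotated exon and the region past its 3′ end were separate transcripts, and those past the end were not part of the summed gene. In NPC libraries 1 and 2 the separate transcript lay at 268541125 to 268542149 and 268540907 to 268542149. In NPC library 3 the region was split further.

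Over the linked transcripts of the locus, NPCs held 3.47, 2.92 and 3.41 fragments per M and cells with IGF-1 3.62, 3.89 and 3.83. The ratio of means was 1.16, with 1.04 to 1.33 over pairs of libraries, and the log2 difference was 0.21. MSCs held 0.908, 1.40 and 1.32. The 5 implied reads of the annotated exon in each NPC library stood beside 123 to 175 implied reads of the locus. The 9.70 times by summed FPKM thus appeared together with the joining of the transcripts, beside 1.16 times by the fragments of the locus. Of the tested genes, 33 (0.232%) had annotated isoforms above 0 in all NPC libraries and at 0 in all libraries with IGF-1, this gene among them, and 35 (0.246%) the reverse, among them ENSRNOG00000016033. Induced cells were higher than MSCs by 2.43 (SE 0.27) on the log2 scale by summed FPKM, a value that carries the same joining. It is the mean of 1.03 (SE 0.31) for NPCs and 3.82 (SE 0.31) for cells with IGF-1, so no p is given for it. With annotated isoforms only, the contrast of induced cells with MSCs was 0.23 (adjusted p = 0.572 by limma).

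**Figure D3:**
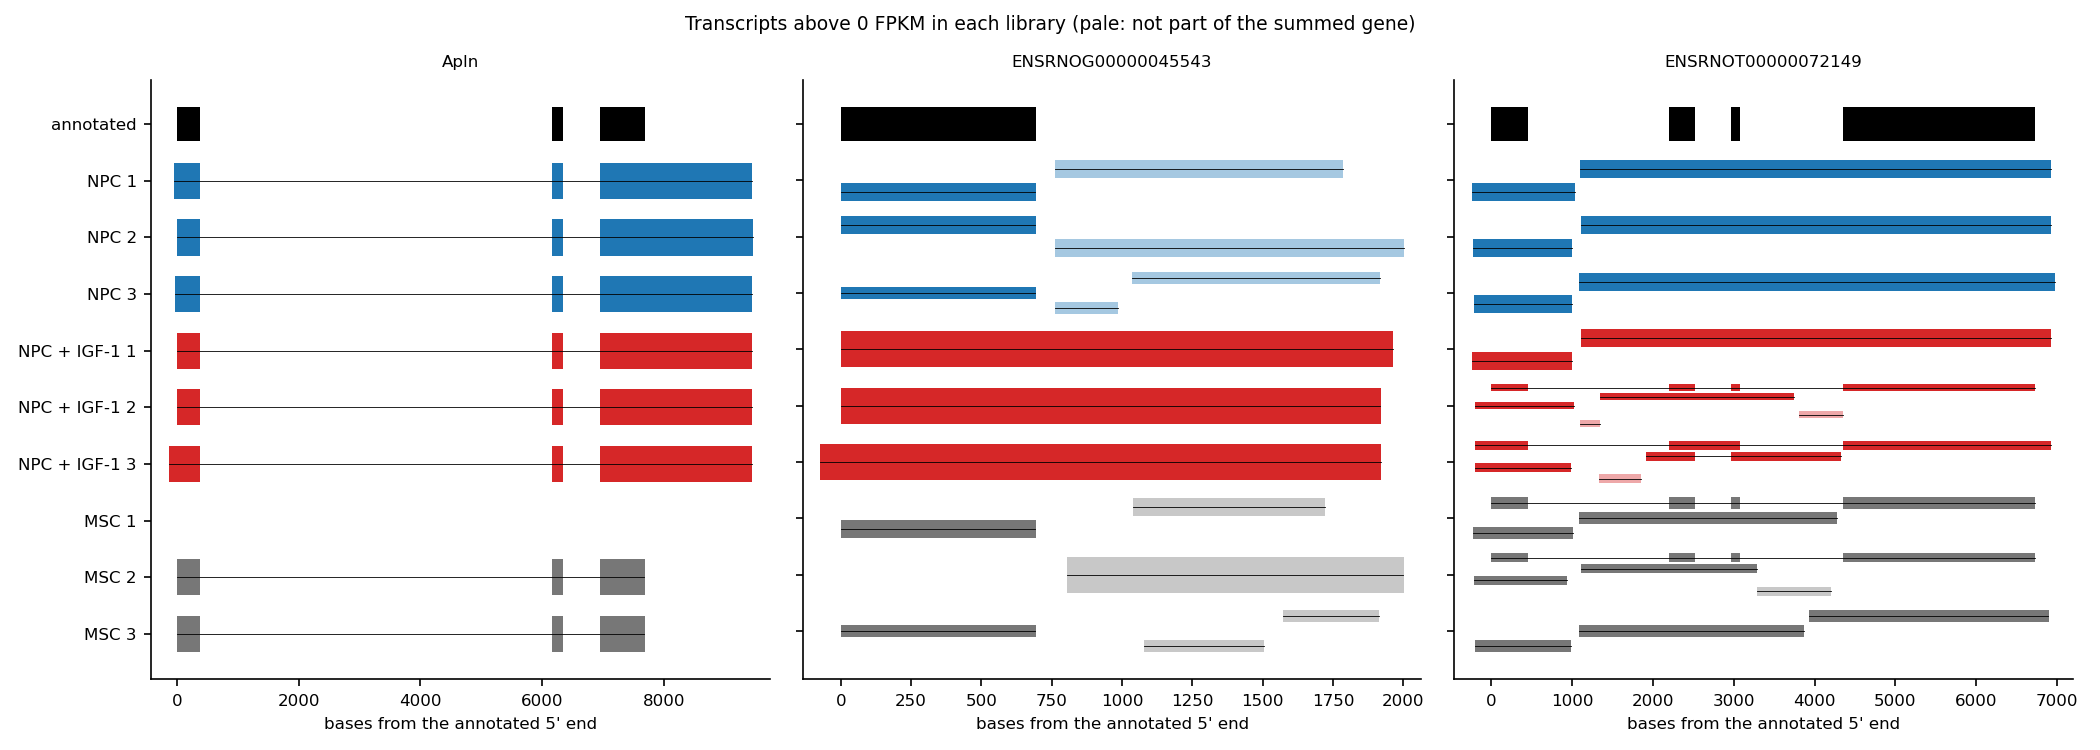
Transcripts above 0 FPKM in each library for Apln, ENSRNOG00000045543 and ENSRNOT00000072149, with the annotated exons in black at the top. The x axes give bases from the annotated 5′ end along the strand of the gene. Filled bars are exons of the transcripts that enter the summed gene, and pale bars are linked transcripts outside it. For ENSRNOG00000045543 the exon and the region past it are joined in the 3 libraries with IGF-1 and apart in the 6 others.

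ENSRNOT00000072149 was the member that was lower with IGF-1. It has 4 exons and 3251 bases on the minus strand of chromosome 1, from 81481174 to 81487900, and the files give it no gene ID. The summed FPKM were 37.0, 28.8 and 31.8 in NPCs (32.5 ± 4.12, SD, n = 3), 9.15, 11.4 and 7.62 with IGF-1 (9.40 ± 1.93, SD, n = 3) and 12.9, 12.2 and 14.5 in MSCs (13.2 ± 1.19, SD, n = 3). Every NPC library lay above every other library, and every library with IGF-1 lay below every MSC library. The mean of NPCs was 3.46 times that with IGF-1, with 2.52 to 4.85 over pairs of libraries, and the log2 difference was −1.81 (SE 0.19), ranked 56 among the decreases.

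By summed FPKM the order of the groups for ENSRNOT00000072149 was thus NPCs, then MSCs, then cells with IGF-1. Over the locus, as given below, only NPCs stood apart, and the libraries with IGF-1 overlapped the MSCs. By summed FPKM, NPCs differed from MSCs by 1.21 (SE 0.19) and cells with IGF-1 by −0.60 (SE 0.19) on the log2 scale. The mean of both induced groups against MSCs did not pass, with a log2 difference of 0.31 (SE 0.16, adjusted p = 0.148 by limma), and the induced groups lay on either side of MSCs. By the fragments of the summed gene this difference was 0.81 (SE 0.19, adjusted p = 0.00526 by limma), under the fold that a call required.

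Most of the signal of this locus was not on the annotated, spliced transcript. That transcript was listed at 0 in all 3 NPC libraries, in libraries 1 and 3 with IGF-1 and in MSC library 3. In NPCs the FPKM stood on 2 unannotated pieces of a single exon each, of 5814 to 5898 bases and of 1213 to 1283 bases, which run across the annotated introns and lie side by side. Library 1 with IGF-1 had the same 2 pieces, and the other libraries had 3 to 5 transcripts above 0 FPKM. Because the pieces lie side by side, the sum of their FPKM is not the level of 1 transcript. Fragments per M over the locus do not have that limit. They were 89.7, 69.1 and 78.1 in NPCs, 21.5, 22.0 and 15.3 with IGF-1 and 21.5, 18.3 and 23.5 in MSCs. By this measure the mean of NPCs was 4.02 times that with IGF-1, and the libraries with IGF-1 and the MSCs overlapped. With annotated isoforms only, the difference turned to 1.49 (SE 1.34) with values above 0 in library 2 with IGF-1 alone among the 6 induced libraries.

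Read over all genes, the 5 members were not the largest differences between the groups with and without IGF-1. By limma, 3 of 14228 tested genes (0.0211%) were called, with an adjusted p up to 0.05 and a log2 difference of 1 or more in either direction. Of these, 2 were higher with IGF-1 (0.0141%) and 1 lower (0.00703%). Members are among the called genes and among those not called. Since the members were chosen by this contrast, nothing is read from their calls. The libraries with IGF-1 lay above all NPC libraries for 813 genes (5.71%) and below them for 553 (3.89%). A log2 difference of at least 1 together with no overlap was found for 73 genes that were higher and 57 that were lower. The count at an unadjusted p under 0.05 was 657 (4.62%).

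**Figure D4:**
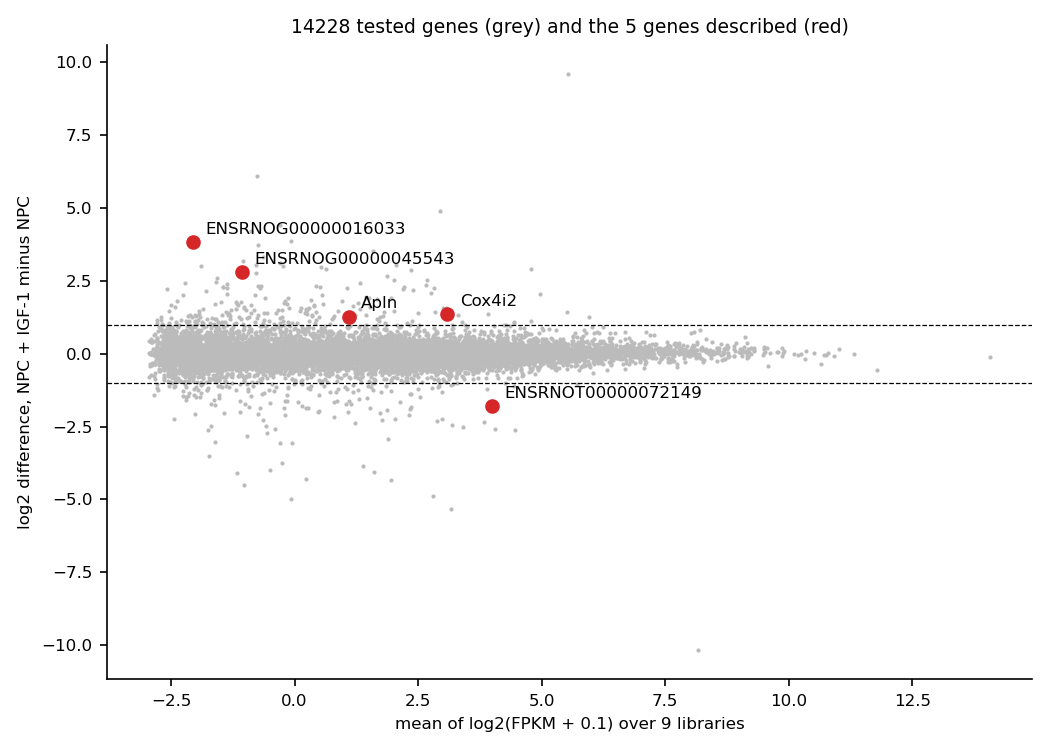
Log2 difference between NPCs with IGF-1 and NPCs (y axis, NPCs with IGF-1 minus NPCs) against the mean of log2(FPKM + 0.1) over the 9 libraries (x axis) for 14228 tested genes (grey), with the 5 members in red. Dashed lines mark a difference of 1 in either direction. The members range from −1.81 for ENSRNOT00000072149 to 3.82 for ENSRNOG00000016033, and in both directions other genes lie farther from 0.

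Summed in up to 4 ways, the difference of Apln and Cox4i2 kept its direction and size, and those of ENSRNOG00000045543 and ENSRNOT00000072149 turned with annotated isoforms only. For Apln the log2 difference was 1.26 by summed FPKM, 1.27 by the fragments of the summed gene and 1.30 over the locus. For Cox4i2 the values were 1.36, 1.33 and 1.37, and 1.14 with the annotated isoform only. For ENSRNOG00000045543 they were 2.79 by summed FPKM, −1.68 with the annotated exon only, 4.40 by the fragments of the summed gene and 0.21 over the locus. For ENSRNOT00000072149 they were −1.81 by summed FPKM, 1.49 with annotated isoforms only, −2.10 by fragments and −2.01 over the locus. Fragments were counted in this way after the data were seen.

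**Figure D5:**
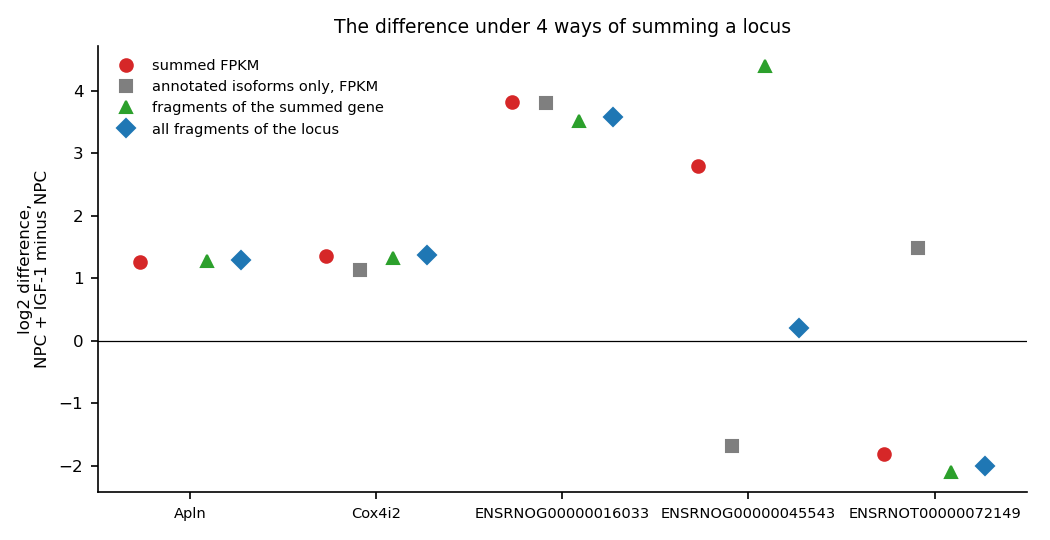
Log2 difference (y axis, NPCs with IGF-1 minus NPCs) of the 5 members by summed FPKM (circles), FPKM of annotated isoforms only (squares), fragments of the summed gene (triangles) and all fragments of the locus (diamonds). Apln has no square, since its annotated isoform is at 0 in every induced library. For ENSRNOG00000045543 the diamond lies at 0.21, near 0, while the circle lies at 2.79.

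The partners of Apln and Cox4i2 could be followed only in part, since gene names were held for 2452 of the 26249 units. Neither Aplnr, the apelin receptor, nor Cox4i1 was among them. Of 17 genes of the apelin pathway 3 were named and 2 tested. Besides Apln, Prkaa2, a catalytic subunit of AMP-activated kinase, fell from 1.69 ± 0.147 FPKM (SD, n = 3) in MSCs to 0.160 ± 0.131 in NPCs and was at 0.213 ± 0.0381 with IGF-1. Its log2 difference between induced cells and MSCs was −2.80 (SE 0.36, adjusted p = 0.00029 by limma). Corin, a membrane protease, stayed under the filter.

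Of 19 cytochrome c oxidase subunits and related proteins 5 were named and 3 tested, and Cox4i2 was the only one of the 3 that rose in induced cells. Cox6a1, the common isoform of subunit VIa, was at 212 ± 22.8 FPKM (SD, n = 3) in NPCs, 213 ± 14.3 with IGF-1 and 404 ± 7.51 in MSCs, a fall of induced cells against MSCs with a log2 difference of −1.02 (SE 0.11, adjusted p = 0.000126 by limma). Cox6b2, a testis isoform, fell as well, from 5.74 ± 0.631 FPKM in MSCs to 1.78 ± 0.328 in NPCs, with a log2 difference of −1.79 (SE 0.17, adjusted p = 4.27e-05 by limma). Between the groups with and without IGF-1 these genes differed by −0.01 (SE 0.13) and −0.13 (SE 0.19) on the log2 scale. Ndufa4l2, a small mitochondrial protein induced in low oxygen, was at 150, 11.4 and 0 FPKM in NPCs, 20.5, 26.3 and 13.4 with IGF-1, and 0, 0.449 and 0 in MSCs. Its annotated transcript is shorter than 300 bases, so that it was not tested. NPC libraries alone spanned the values of the libraries with IGF-1. Cox7a1 was listed at 0 in every library.

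Of 29 targets of the hypoxia response 4 were named and tested, and the 3 described here rose in induced cells. Adm, which encodes the vasodilator adrenomedullin, was at 2.98 ± 0.536 FPKM (SD, n = 3) in NPCs, 2.42 ± 0.151 with IGF-1 and 1.05 ± 0.292 in MSCs, with a log2 difference of 1.22 (SE 0.22, adjusted p = 0.00173 by limma) for induced cells. Egln3, a prolyl hydroxylase that marks HIF proteins for decay, was at 1.19, 0.575 and 0.0865 FPKM in NPCs, 0.610, 2.00 and 1.25 with IGF-1 and 0 in the MSC libraries. The transcription factor Epas1 rose by 1.82 (SE 0.15, adjusted p = 2.18e-05 by limma). None of the 4 was called between the groups with and without IGF-1 by limma, and the median of their log2 differences was 0.15 against 0.005 over all tested genes. At an unadjusted p under 0.05 the count was 0. Over all tested genes 0.0211% were called and 4.62% had an unadjusted p under 0.05, so these counts among 4 genes tell nothing about a hypoxia response.

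Of 31 genes of insulin-like growth factor signalling 5 were named and tested. Igf2r, a receptor that clears IGF-2, was at 255 ± 39.3 FPKM (SD, n = 3) in NPCs, 199 ± 23.9 with IGF-1 and 49.3 ± 1.07 in MSCs, and rose in induced cells with a log2 difference of 2.10 (SE 0.12, adjusted p = 3.26e-06 by limma). Igfbp7, a secreted binding protein, rose by 1.37 (SE 0.22, adjusted p = 0.0011 by limma), and Sesn1, a stress protein and FoxO target, by 1.09 (SE 0.16, adjusted p = 0.000663 by limma). Igfbp6, another binding protein, fell by 2.73 on the log2 scale (SE 0.38, adjusted p = 0.000406 by limma). Between the groups with and without IGF-1, none of the 27 list and marker genes tested besides Apln and Cox4i2 was called by limma, and 3 had an unadjusted p under 0.05 (Igf2r, Pik3r3 and Vwf). Over all tested genes these shares were 0.0211% and 4.62%. With so few genes called in all, the lack of calls among the 27 tells nothing about the lists. Names came largely from the study's own table of changed genes, so the counts of risen and fallen genes do not bear independently on the direction of a list.

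The tested cell type markers, apart from Nes and Msi1, were called between MSCs and induced cells. Names came largely from genes that the study reported as changed, which favours such calls in advance. None was called with IGF-1 against NPCs, where 0.0211% of all tested genes were called. The 4 named haematopoietic markers of 13 summed to 0.247 to 0.502 FPKM in MSCs, 9.76 to 11.5 in NPCs and 9.24 to 14.7 with IGF-1. Nearly all of this was Cd68, a lysosomal protein of macrophages, while Ptprc, which defines leukocytes, was at 0 in 7 of the 9 libraries and at most 0.0142 FPKM. The 2 that were tested, Cd68 and the transcription factor Spi1, both rose in induced cells. Spi1 was at 0.0159 ± 0.0155 FPKM (SD, n = 3) in MSCs, 0.173 ± 0.0439 in NPCs and 0.233 ± 0.0567 with IGF-1. Its log2 difference was 1.35 (SE 0.23, adjusted p = 0.00119 by limma), at levels near the minimum of 0.1 FPKM. The 2 named endothelial markers of 16 summed to 0.228 to 0.520 FPKM in NPCs, 0.0983 to 0.220 with IGF-1 and 0.805 to 1.72 in MSCs, and they moved in opposite directions. Flt1, a VEGF receptor, was at 0 in every induced library, while Vwf, which encodes von Willebrand factor, rose from 0.0177 ± 0.00884 FPKM (SD, n = 3) in MSCs to 0.345 ± 0.155 in NPCs and was at 0.141 ± 0.0692 with IGF-1, with a log2 difference of induced cells against MSCs of 1.40 (SE 0.28, adjusted p = 0.00321 by limma). The 6 named pericyte markers of 11 summed to 18.4 to 169 FPKM in NPCs, 27.0 to 42.6 with IGF-1 and 21.4 to 38.1 in MSCs. The top of the range in NPCs is library 1, where Ndufa4l2, which was not tested, alone was at 150 FPKM. Of the 5 tested, 2 rose in induced cells (Higd1b and Rgs5) and 3 fell (Abcc9, Mcam and Kcnj8), and the median log2 difference was −1.36. Higd1b was at 7.95 ± 3.49 FPKM (SD, n = 3) in NPCs, 5.56 ± 1.31 with IGF-1 and 0.0113 ± 0.0196 in MSCs. The 4 named neural progenitor markers of 10 summed to 0.560 to 0.764 FPKM in NPCs, 0.711 to 0.993 with IGF-1 and 0.942 to 1.35 in MSCs, and Fabp7 was at 0 throughout. Of the 3 tested, Prom1, a membrane protein, fell in induced cells from 0.592 ± 0.0955 FPKM (SD, n = 3) in MSCs to 0.0203 ± 0.00732 in NPCs. Msi1 was at 0.371 ± 0.138 FPKM in NPCs, 0.531 ± 0.178 with IGF-1 and 0.452 ± 0.122 in MSCs. Its log2 difference between induced cells and MSCs was −0.11 (SE 0.30, adjusted p = 0.795 by limma). Nes, which encodes nestin, was higher in every induced library than in every MSC library, at 0.305 ± 0.0200 FPKM in NPCs, 0.294 ± 0.0328 with IGF-1 and 0.117 ± 0.0551 in MSCs, but its log2 difference of 0.88 (SE 0.22, adjusted p = 0.00936 by limma) stayed under the fold that a call required. The 4 named mesenchymal markers of 11, chiefly Vim and Itgb1, summed to 936 to 1090 FPKM in NPCs, 862 to 1060 with IGF-1 and 3560 to 4060 in MSCs. Both fell in induced cells, while Vcam1, an adhesion molecule, rose from 0.0600 ± 0.0323 FPKM (SD, n = 3) in MSCs to 4.35 ± 1.84 in NPCs and was at 3.77 ± 0.994 with IGF-1, with a log2 difference of 4.60 (SE 0.30, adjusted p = 5.6e-06 by limma). In bulk samples fewer cells of a type and less RNA per cell cannot be told apart, and the part of these cell types in the levels of Apln and Cox4i2 was not tested.

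The named genes whose profile was most like that of a member were found by Pearson's r of log2(FPKM + 0.1) over the 9 libraries, which share their groups and scaling, and r is given as a measure of likeness only. Apln was closest to Cox4i2 (r = 0.993), then to Frzb, a secreted Wnt antagonist (r = 0.993), and Ccl22, a chemokine (r = 0.991), among 1305 candidates. Cox4i2 was closest to Apln, Frzb (r = 0.992) and Fth1, the heavy chain of ferritin (r = 0.991). Frzb was at 86.7, 133 and 58.6 FPKM in NPCs and 133, 172 and 215 with IGF-1, and at 0.328 to 0.584 in MSCs. In Apln, Cox4i2 and Frzb the step from MSCs to NPCs was larger than that from NPCs to cells with IGF-1. ENSRNOG00000016033 and ENSRNOG00000045543 had the same 3 genes nearest to them among 1306 candidates, Fam162a, Ppt2 and Pfkl, with r of 0.762 to 0.813 and 0.868 to 0.912. The profiles of both members are mainly the difference with IGF-1 by which they were chosen, so nothing is read from the shared genes. Fam162a, a mitochondrial protein induced in low oxygen, was at 96.8, 85.0 and 49.9 FPKM in NPCs, 115, 182 and 134 with IGF-1 and 46.7, 47.7 and 30.2 in MSCs, and Pfkl, the liver phosphofructokinase, at 33.8, 25.6 and 24.6, then 40.2, 49.0 and 41.2, then 18.4, 11.6 and 11.7. Neither was called with IGF-1, with log2 differences of 0.91 (adjusted p = 0.913 by limma) and 0.63 (adjusted p = 0.967 by limma). ENSRNOT00000072149 was closest to Smpd4 (r = 0.793), Ypel1 (r = 0.773) and Mphosph9 (r = 0.755).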

How the data were processed

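The 9 libraries of stranded mRNA-seq comprised 3 each of MSCs, NPCs and NPCs with IGF-1. The authors deposited 1 transcript assembly for each library, in which the attribute text gives the FPKM of every transcript with its 95% confidence interval, scaled within the library. The other deposited number is a Cufflinks score relative to the major isoform, which was not used. By the submitters' processing notes, CASAVA 1.8 and bcl2fastq, TopHat with Bowtie2, and Cufflinks with Cuffdiff were used. The study's methods describe another pipeline, with STAR, RSEM and the build rn6. The genome build and the annotation release of the deposited assemblies are not given in the sources used here.

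For each gene, FPKM were summed over its isoforms, annotated or not. Transcripts with no gene ID were grouped by overlap of exons, giving 26249 units, of which 2452 could be named from the study's tables. The 14228 units that reached 0.1 FPKM in 3 libraries or more, with 300 annotated bases or more, were tested. After scaling by size factors (median of ratios), limma 3.58.1 in R 4.3.3 was fitted to log2(FPKM + 0.1) with all 9 libraries, trend and robust. Calls required an adjusted p (Benjamini-Hochberg) up to 0.05 and a log2 difference of 1 or more in either direction. The members are tested only in the mean of both induced groups against MSCs, which in groups of equal size is uncorrelated with the difference that chose them. Choice by libraries that lie apart also favours genes with a small spread within groups. That spread is the error of this test, so the p of members may be too small.

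Fragments per M are FPKM times an effective length, for fragments of 200 bases (SD 80), values assumed here. Depth is the median of reads implied by the confidence intervals over that product, for transcripts of at least 600 bases. It and the implied reads cover counting error only. Other steps used Python 3.11.15, pandas 2.3.3 and numpy 2.4.6.

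The members and lists were chosen with earlier results of these data known. Genes named are the members, up to 4 of each list (first called, then most abundant), the nearest annotated genes within 100 kb, the 3 most similar named genes, and Cox4i1 and Aplnr where held. Pik3r3 was named after its value was seen. The result of 1 tested gene of the hypoxia list is not reported here. The coordinates are those of the files, and the promoter is from RefSeq (GRCr8), which matched 1 of the 5 members.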

Additional observations from a re-analysis of the deposited data

Results flagged for a closer look

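At the locus of ENSRNOG00000045543, transcripts outside the summed gene held 3.36, 2.80 and 3.31 fragments per M in the NPC libraries, a mean of 3.15 ± 0.308 (SD, n = 3). This lay above the MSC libraries, at 0.842, 1.40 and 1.30, and the libraries with IGF-1 held 0 there. The signal stands outside the FPKM that the comparison of genes used, and was looked at because every NPC library exceeded every MSC library.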

How the results depend on the processing

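For induced cells against MSCs, 3137 genes were called (54.5% higher in induced cells), 1718 with a pseudocount of 1 (47.4%), 1800 with annotated isoforms only, and 2837 to 3257 with 1 library left out. With IGF-1 against NPCs the count was 3. It was 19 with annotated isoforms only, 5 without trend, 5 with no filter, and 1 to 10 with 1 library left out (5, 5 and 6 without NPC library 1, 2 and 3, 10, 2 and 1 without library 1, 2 and 3 with IGF-1). Deviations of same-numbered libraries had r of −0.0955 to 0.103. These values cannot show whether the numbers pair libraries of the same rat, which the labels do not give. By the study's methods, NPCs were made from MSCs of the same rats. With the replicate block the count with IGF-1 against NPCs was 1. The contrast of ENSRNOG00000016033 with MSCs was 0.60 with a pseudocount of 1, and under the threshold of 1, and its difference with IGF-1 was 3.51 by fragments, 3.58 over the locus, 3.72 with quantile normalisation, 7.04 with a pseudocount of 0.01 and 1.21 with 1. It could not be tested without any 1 of the 3 libraries with IGF-1, because the filter asks for 3. For ENSRNOG00000045543 the contrast with MSCs was 0.87 with a pseudocount of 1 and 0.23 with annotated isoforms only, and the difference with IGF-1 was 3.21 and 1.35 with pseudocounts of 0.01 and 1, 4.40 by fragments, 0.21 over the locus and −1.68 with annotated isoforms only. For ENSRNOT00000072149 annotated isoforms only gave −1.31 against MSCs and 1.49 with IGF-1, and fragments gave 0.81 against MSCs and −2.10 with IGF-1. In the other fits that were run, those with 1 library left out included, the members kept their direction. Causes were not tested. The summed FPKM of ENSRNOG00000045543 in NPCs rest on 5 implied reads in each library, beside 123 to 175 implied reads of the locus.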
